A study of Homo sapiens with 5 samples.

Results

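Integrins are receptors made of 1 alpha and 1 beta subunit that bind the extracellular matrix outside the cell, and cytoplasmic linker proteins couple them to actin. The 30 genes described here are 17 integrin subunits (12 alpha, 5 beta) and 13 linkers, given by name and found by Ensembl gene ID among the 19936 genes of the files. They were sorted into collagen-binding (ITGA1, ITGA2, ITGA10, ITGA11), laminin-binding (ITGA3, ITGA6, ITGA7, ITGB4) and RGD-binding (ITGA5, ITGA8, ITGAV, ITGB3, ITGB5, ITGB8) integrins, the alpha4 and alpha9 subunits (ITGA4, ITGA9), the shared beta1 subunit (ITGB1) and the linkers. RGD is the arginine-glycine-aspartate site of fibronectin and vitronectin. The 5 libraries came from LX-2, an established line of human hepatic stellate cells. Of these, 2 had received a control siRNA (control 1 and 2) and 3 an siRNA against LIX1L (siLIX1L 1, 2 and 3), and RNA was taken 48 h later. Stellate cells are the pericytes of the liver, which lay down matrix when activated, and LX-2 is 1 line. The labels name no other treatment. They do not tie the libraries to separate cultures, so a p-value here weighs a difference against spread that may be technical only. In RNA from whole cultures, fewer cells of a type and less RNA per cell cannot be told apart.

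As background, talin and kindlin bind the tail of a beta subunit and switch the receptor on. The ILK, LIMS1 and PARVA proteins form a complex on that tail. Paxillin, focal adhesion kinase and BCAR1 carry signals, and vinculin, zyxin and the tensins tie the site to actin. In stellate cells, integrins are known for binding matrix and for the RGD-binding receptors that release latent TGF-beta.

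Each library held 14856104 to 18294056 reads on genes. Values are given as RPM, the reads of a gene per 1000000 reads of its library, and a level is compared between genes only as RPM per kilobase (kb) of the longest coding transcript. LIX1L, the targeted gene, was at 26.4 and 35.5 RPM in the controls and 6.60, 7.08 and 3.65 RPM in siLIX1L 1, 2 and 3, below both controls in all 3. It was 5.36-fold lower, and the difference of -0.87 ± 0.11 (log2(FPKM + 1) scale, SE) passed limma with an adjusted p of 0.0384. Of the stellate markers, 8 of 11 were at 1 RPM or more in every library, and the list summed to 2053 and 5202 RPM in the controls and 2417 to 3403 RPM after siLIX1L. Among them ACTA2, smooth muscle actin of activated stellate cells, was named after its values were seen. It went from 39.0 and 35.4 RPM to 8.89, 8.41 and 14.8 RPM (3.48-fold lower, edgeR adjusted p 0.0497). It was under the limma minimum, and edgeR called 0 genes without any 1 siLIX1L library. For the other stellate markers at 1 RPM or more in every library, ratios of means ran from 0.608 to 1.21. Their edgeR adjusted p ran from 0.144 to 0.828. LRAT, the retinyl ester enzyme of quiescent stellate cells, was at 3 reads or fewer in all 5. DES, at 0 to 13 reads, and GFAP, at 6 to 16 reads, were under 1 RPM in every library. All 6 hepatocyte markers were at 3 reads or fewer. Of the 5 macrophage and leukocyte markers 1 reached 1 RPM in every library and CD3E and CD68 were at 3 reads or fewer. Of the exon bases of CD68, 85.8% lie on other annotated genes, so its level cannot be read as expression. The summed level of the 5 was 10.2 and 37.6 RPM in the controls and 5.67 to 9.40 RPM after siLIX1L. Most of that sum was CD14, named after its values were seen, at 8.81 and 35.7 RPM and then 6.53, 7.81 and 4.72 RPM. The 5 endothelial markers summed to 2.41 to 5.38 RPM and 3.30 to 7.15 RPM, with CDH5 at 3 reads or fewer, and the 4 epithelial markers to 2.68 to 4.50 RPM and 1.06 to 3.31 RPM, with CDH1 at 3 reads or fewer. Mitochondrial genes took 2.24% and 3.35% of the control reads and 1.08% to 1.29% of the siLIX1L reads, and the part of this, of ACTA2 and of the leukocyte markers in the results was not tested.

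siLIX1L 1 and 2 resembled each other far more than any other pair did. A chi-square statistic per gene was 5.41 between them, above the 1 that sampling noise alone would give, and at least 53.0 for every other pair. It was 116 between the 2 controls. With siLIX1L 1, 2 and 3 it was 90.1, 98.5 and 100 for control 1, and 136, 157 and 158 for control 2. Control 1 was thus closer to each siLIX1L library than to control 2. siLIX1L 1 and 2 were kept as separate libraries. The file of siLIX1L 3 alone has length and count columns. The sources used here do not say whether it came from a separate run, and the part of this in the results was not tested.

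The promoters of ITGB1, ITGA2, ITGA6 and PXN are shown because the results turn on these genes. Each is a 300-base RefSeq window of GRCh38.p14 around a transcript start, 5′ to 3′ on the gene's strand. They are chr10:32958181-32958480 (minus strand), chr5:52989102-52989401 (plus), chr2:172427336-172427635 (plus) and chr12:120265681-120265980 (minus). Capitals mark matches, on either strand, to the Sp1 GC box (GGGCGG) or to the EGR motif (GCGNGGGCG).
ITGB1: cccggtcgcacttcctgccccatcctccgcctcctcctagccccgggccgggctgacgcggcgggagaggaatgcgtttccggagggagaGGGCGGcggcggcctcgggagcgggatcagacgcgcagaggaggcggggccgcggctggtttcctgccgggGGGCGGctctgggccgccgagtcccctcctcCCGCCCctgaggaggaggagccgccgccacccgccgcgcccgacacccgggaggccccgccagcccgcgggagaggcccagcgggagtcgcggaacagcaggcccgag
ITGA2: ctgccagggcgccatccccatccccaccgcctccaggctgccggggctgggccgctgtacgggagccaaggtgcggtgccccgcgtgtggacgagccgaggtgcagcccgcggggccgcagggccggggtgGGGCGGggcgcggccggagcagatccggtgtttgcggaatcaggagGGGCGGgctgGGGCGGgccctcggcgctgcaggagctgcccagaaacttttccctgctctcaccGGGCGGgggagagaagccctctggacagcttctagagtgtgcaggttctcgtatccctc
ITGA6: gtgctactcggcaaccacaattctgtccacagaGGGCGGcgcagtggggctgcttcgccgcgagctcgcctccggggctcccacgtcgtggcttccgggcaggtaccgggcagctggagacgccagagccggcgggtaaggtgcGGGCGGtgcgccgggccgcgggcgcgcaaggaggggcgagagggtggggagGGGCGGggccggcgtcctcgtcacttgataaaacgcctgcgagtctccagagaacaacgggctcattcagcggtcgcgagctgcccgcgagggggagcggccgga
PXN: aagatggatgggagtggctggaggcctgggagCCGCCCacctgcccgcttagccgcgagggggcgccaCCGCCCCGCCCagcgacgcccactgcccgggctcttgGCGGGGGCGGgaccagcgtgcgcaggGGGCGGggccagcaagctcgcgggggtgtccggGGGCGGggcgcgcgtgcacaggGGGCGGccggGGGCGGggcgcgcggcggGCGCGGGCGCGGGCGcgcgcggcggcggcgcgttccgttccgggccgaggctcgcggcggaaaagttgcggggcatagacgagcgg

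The windows of ITGB1 and ITGA6 each hold 3 GC boxes, that of ITGA2 holds 4 and that of PXN holds 8. GC boxes were in 25 of the 42 windows of the 23 members that the table lists, and in 45.0% of all 35116 windows. The PXN window also holds 3 EGR matches, which can overlap GC boxes, and EGR matches were in 7 member windows and in 9.43% of all windows. The AP-1 motif (TGANTCA) was in 3 of the 42 member windows and in 7.71% of all. The CArG box, the site of serum response factor, was in 0 of the 42 member windows and in 1.29% of all. A match describes letters only.

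In the controls ITGB1 led all members at 494 ± 112 RPM per kb (SD, n = 2), and the level of ITGA5 was next at 202 ± 52.6, with no overlap between the libraries. ZYX at 138 ± 57.9 and ITGA3 at 126 ± 0.271 followed. ZYX overlapped with ITGA5 and with ITGA3. The next levels were FERMT2 at 91.6 ± 2.55, TLN1 at 70.0 ± 9.05, VCL at 49.9 ± 1.07 and BCAR1 at 49.2 ± 5.04, of which only VCL and BCAR1 overlapped. ITGB5, LIMS1, PXN, ITGAV, ITGA6, PTK2 and ITGA7 lay from 34.1 down to 14.4 RPM per kb, with most neighbours overlapping. ITGA2, PARVA, TNS3, ITGA1, TNS1, TLN2, ITGA4, ITGA11, ITGB4 and ITGB8 lay from 9.60 down to 0.509 RPM per kb. The integrin levels were thus led by beta1 with alpha5 (the fibronectin receptor) and alpha3 (a laminin receptor). ITGA8, the alpha subunit of the nephronectin receptor, had 0 reads in 4 libraries and 1 read in siLIX1L 2, against a limit of 3 reads (0.164 to 0.202 RPM). ITGA9 had 0 to 5 reads and ITGA10 had 10 to 18. ILK, integrin-linked kinase, had 2 to 16 reads, but 78.5% of its exon bases lie on other annotated genes. The ITGB3 figure is 51.6%. Of 628 genes with 80% or more of such overlap, 98.1% were under 1 RPM, and of 463 genes with 50% to under 80%, 67.2%, against 42.4% of genes with none, so the ILK and ITGB3 levels cannot be read as expression.

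**Figure D1:**
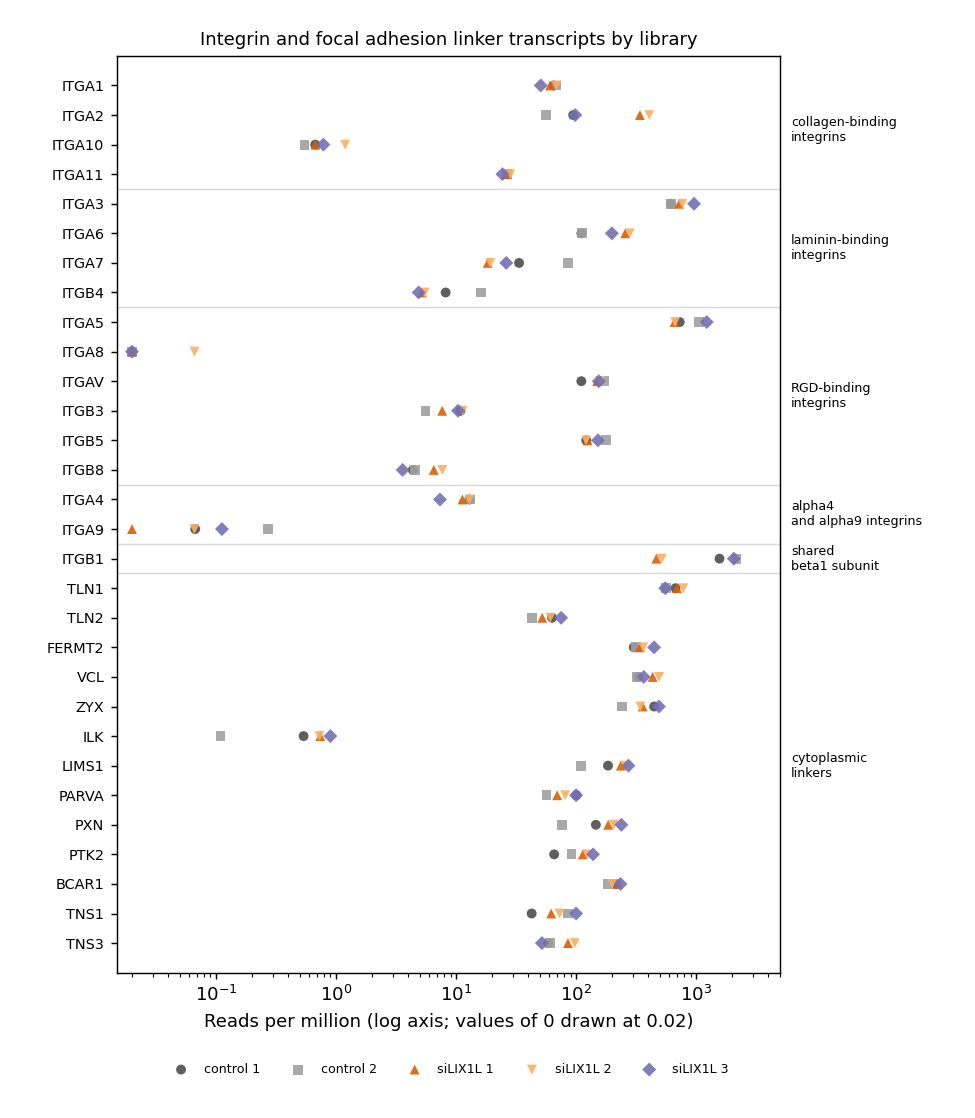
RPM of the 30 members in each of the 5 libraries (log axis), grouped by role. Most members' points lie close together, and ITGB1 and ITGA2 spread widely among the siLIX1L libraries.

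No member passed the main test. limma on log2(FPKM + 1) covered the 15 members at 1 FPKM or more in at least 2 libraries and called 0 of them, against 121 of 6464 genes or 1.87% (adjusted p under 0.05, over all genes). Of the 15, 5 had an unadjusted p under 0.05, a share near the 27.6% of all genes that did. The lowest adjusted p of a member was 0.0536, for ITGA6. Without control 1, the limma fit called 4 members, ITGA6, LIMS1, PXN and ITGA7, and 1650 of the 6464 genes. The FPKM in the files divide by the whole gene span, introns included, which puts long genes under the minimum, so edgeR was also run on reads recovered from the FPKM. It tested 28 members and called 0, against 0.891% of 13026 genes, with 7 of the 28 at an unadjusted p under 0.05 beside 25.8% of all genes. DESeq2 on the same reads called 6 of the 28, against 12.5% of 13334 genes. These were ITGA2, ITGA6, LIMS1 and PXN, higher, and ITGA7 and ITGB4, lower. Because limma and edgeR called none, these members are described below by their values.

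The median difference of the 15 members was 0.24 (log2(FPKM + 1)) against -0.01 over all 6464 genes. Of the 15, 11 were positive and 4 negative, and 49.4% of all genes were positive. In edgeR it was 0.25 over the 28 members, against -0.04 over all genes. The 2 controls and the 3 siLIX1L libraries did not overlap for 8 of the 15 members, and 46.5% of all genes had groups that did not overlap. Among the 28, 12 did not overlap (10 higher and 2 lower after siLIX1L), against 44.1% of all genes (2893 higher and 2845 lower). Both shares, taken without direction, are close to the background. The split by direction was not tested.

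**Figure D2:**
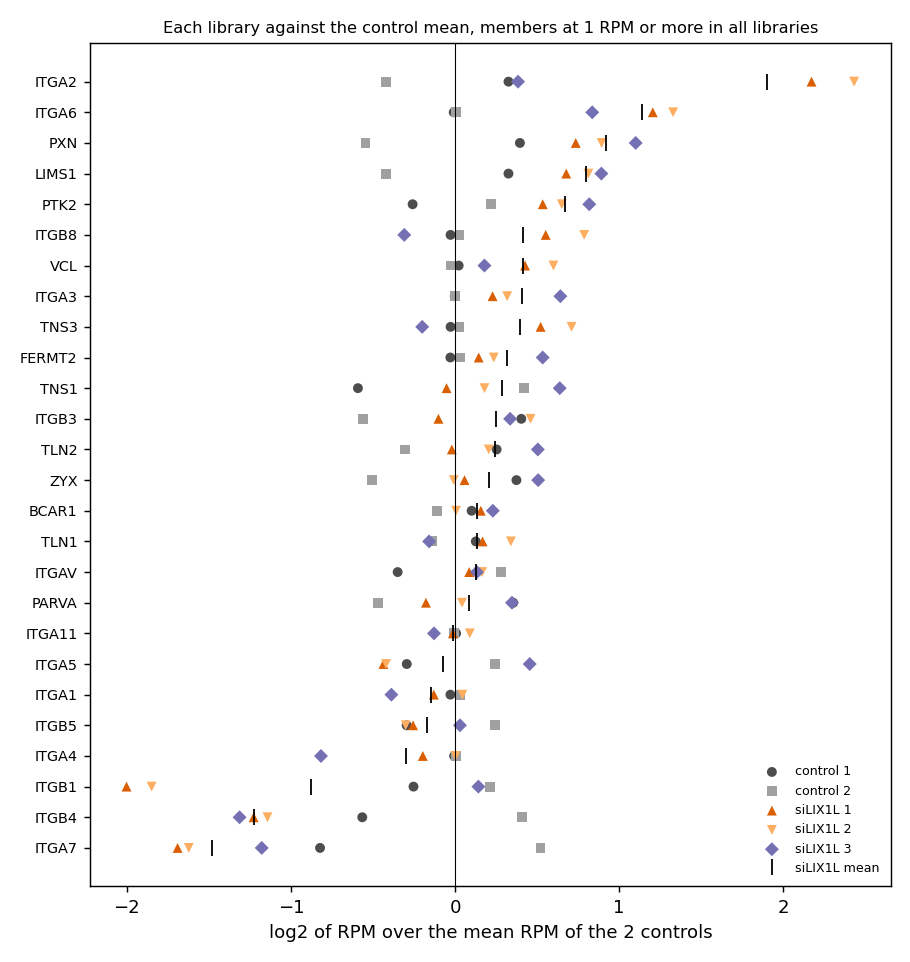
log2 of each library's RPM over the mean of the 2 controls, for the 26 members at 1 RPM or more in all libraries, ordered by the siLIX1L mean (tick). ITGA2 and ITGB1 have siLIX1L 1 and 2 far from 0 and siLIX1L 3 near the controls, while ITGA6, PXN and LIMS1 lie above both controls in all 3 siLIX1L libraries.

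ITGB1 encodes the beta1 subunit, which pairs with most of the alpha subunits here. It lies at chr10:32900319-33005792 (GRCh38, minus strand). Its level was 1567 and 2169 RPM in controls 1 and 2, and 466 and 519 RPM in siLIX1L 1 and 2. It was 2062 RPM in siLIX1L 3, between the controls, so the groups overlapped. The limma difference was -1.09 ± 0.58 (log2(FPKM + 1), SE) with an adjusted p of 0.269, and in edgeR the adjusted p was 0.414. The mean was 1868 ± 425 RPM (SD, n = 2) in the controls and 1016 ± 906 (n = 3) after siLIX1L, 1.84-fold lower. Leaving out siLIX1L 3 made it 3.79-fold lower, and leaving out siLIX1L 1 or 2 made it 1.45-fold or 1.48-fold lower. The range of log2(RPM + 0.5) among the siLIX1L libraries was 2.14, the 28th largest of 12585 genes at 1 RPM or more in at least 2 libraries, whose median was 0.33. ITGB1 was thus low in siLIX1L 1 and 2 only. LIX1L itself was at 6.60, 7.08 and 3.65 RPM in siLIX1L 1, 2 and 3, below both controls in each. The part of LIX1L in the ITGB1 pattern was not tested.

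Among the collagen-binding members, ITGA2 encodes alpha2, a collagen receptor. Its level was 94.6 and 56.4 RPM in the controls, 340 and 407 RPM in siLIX1L 1 and 2 and 98.5 RPM in siLIX1L 3. All 3 siLIX1L libraries lay above both controls, but siLIX1L 3 only by little. The mean was 3.73-fold higher, 4.95-fold without siLIX1L 3 and 2.91-fold without siLIX1L 2. The limma difference was 1.0 ± 0.39 (log2(FPKM + 1), SE) with an adjusted p of 0.160, and in edgeR the log2 difference was 1.89 with an adjusted p of 0.108. DESeq2 called it (adjusted p 0.0038). Its range among the siLIX1L libraries was 2.04 on the log2 scale, the 33rd largest of the 12585. ITGA2 lies at chr5:52989326-53094779, downstream of ITGA1 on the same strand, and ITGA1, the other main collagen receptor, was at 65.2 and 67.8 RPM in the controls and at 50.8 to 68.6 RPM in siLIX1L libraries, with overlap. ITGA11, alpha11 of the fibroblast collagen receptor, was at 26.8 and 26.5 RPM and at 24.4 to 28.3 RPM. The edgeR log2 differences of ITGA1 and ITGA11 were -0.16 and -0.03, with adjusted p of 0.632 and 0.937. The other collagen receptor, ITGA10, had too few reads to weigh.

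Among the laminin-binding members, ITGA6, alpha6 (chr2:172427354-172506282, plus strand), had the lowest adjusted p of all members in limma. It was at 111 and 112 RPM in the controls, which nearly coincided, and 257, 280 and 199 RPM in siLIX1L 1, 2 and 3. All 3 siLIX1L libraries lay above both controls. The mean was 111 ± 0.911 RPM (SD, n = 2) in the controls and 245 ± 41.7 (n = 3) after siLIX1L, 2.20-fold higher, and the limma difference was 0.76 ± 0.15 (log2(FPKM + 1), SE). The adjusted p was 0.0536 in limma, 0.0549 in edgeR and 0.00018 in DESeq2. ITGA3, the most abundant of the group, was at 616 and 618 RPM in the controls and 722, 769 and 962 RPM in the siLIX1L libraries, again with no overlap, and had a mean 1.33-fold higher (limma adjusted p 0.234). ITGA7, alpha7 of muscle, was at 33.5 and 85.1 RPM in the controls and 18.4, 19.3 and 26.2 RPM after siLIX1L. Its mean was 2.79-fold lower, and this became 4.0-fold when control 1 was dropped and 1.58-fold when control 2 was (limma difference -0.73 ± 0.24, adjusted p 0.122; edgeR adjusted p 0.0857). ITGB4, which pairs with alpha6, was at 8.20 and 16.1 RPM in the controls and 5.18, 5.50 and 4.88 RPM after siLIX1L. Its mean was 2.34-fold lower and its edgeR log2 difference -1.26 (adjusted p 0.0911, and 0.0197 in DESeq2), and dropping control 1 or control 2 gave 3.10-fold or 1.58-fold. In both genes control 2 was well above control 1, and every siLIX1L library lay below both.

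**Figure D3:**
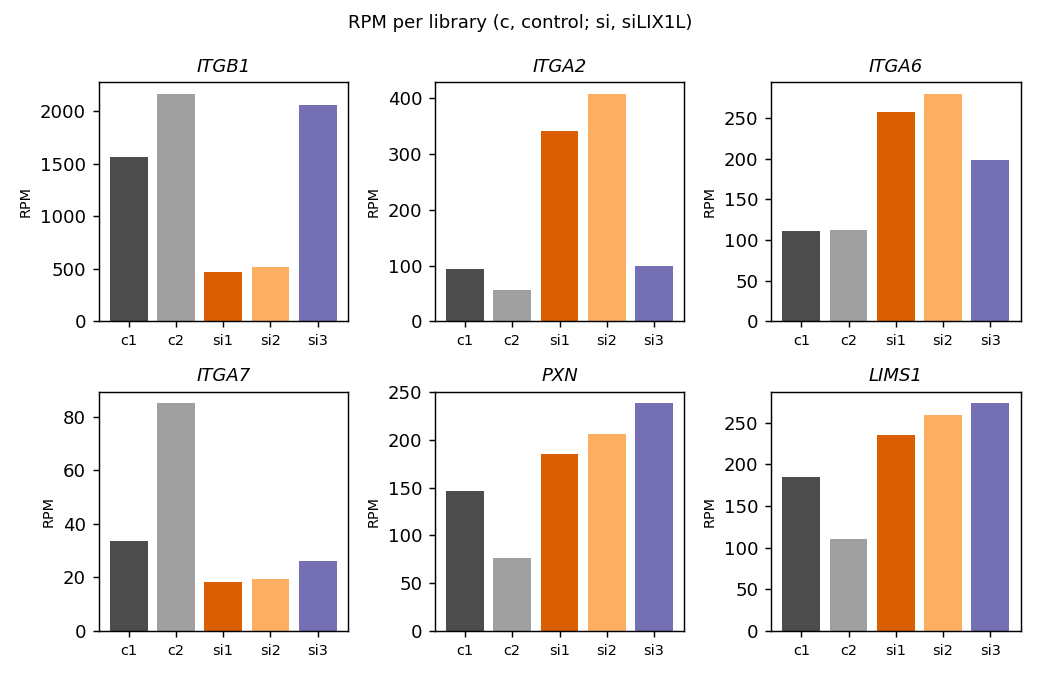
RPM of ITGB1, ITGA2, ITGA6, ITGA7, PXN and LIMS1 per library (c1, c2 controls; si1 to si3 siLIX1L; bars from 0). The siLIX1L 3 bar of ITGB1 stands at the height of the controls, while that of ITGA6 lies above both.

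Among the RGD-binding members, ITGA5, alpha5 of the fibronectin receptor, was at 730 and 1061 RPM in the controls and 662, 669 and 1227 RPM after siLIX1L, with overlap (limma difference -0.11 ± 0.33, adjusted p 0.856). ITGAV, the alphaV subunit of the vitronectin and TGF-beta releasing receptors, was at 111 and 171 RPM in the controls and 150 to 158 RPM after siLIX1L. ITGB5 was at 122 and 177 RPM and 121 to 152 RPM. The limma adjusted p of these was 0.713 and 0.710. ITGB8, another partner of alphaV, was at 4.37 and 4.54 RPM in the controls and 6.53, 7.68 and 3.59 RPM after siLIX1L (edgeR adjusted p 0.543). ITGB3 is the platelet and vitronectin receptor subunit, and its exons overlap other annotated genes as said above. It was listed at 10.9 and 5.58 RPM and then 7.67, 11.3 and 10.4 RPM (edgeR adjusted p 0.672). The 3 members tested by limma in this group and the 5 tested by edgeR had no call, and no member had groups that did not overlap. ITGA4, which binds VCAM1 and fibronectin, was at 12.9 and 13.0 RPM in the controls and 11.3, 13.0 and 7.35 RPM after siLIX1L (edgeR adjusted p 0.521).

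The level of ITGB1 was set against the sum of the 12 alpha subunits, each per kb. The ratio was 1.16 and 1.28 in the controls, 0.292 and 0.305 in siLIX1L 1 and 2 and 0.976 in siLIX1L 3. ITGA5 and ITGA3 made up most of the alpha sum in every library. ITGA2 took 3.36% and 1.60% of it in the controls, 10.2% and 11.5% in siLIX1L 1 and 2 and 2.24% in siLIX1L 3. ITGA6 took 5.51% and 4.44%, then 10.8%, 11.1% and 6.34%. The ratio is a transcript ratio, not one of protein at the surface. The alpha sum includes subunits that also pair with other beta subunits, such as alphaV and, with ITGB4, alpha6.

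**Figure D4:**
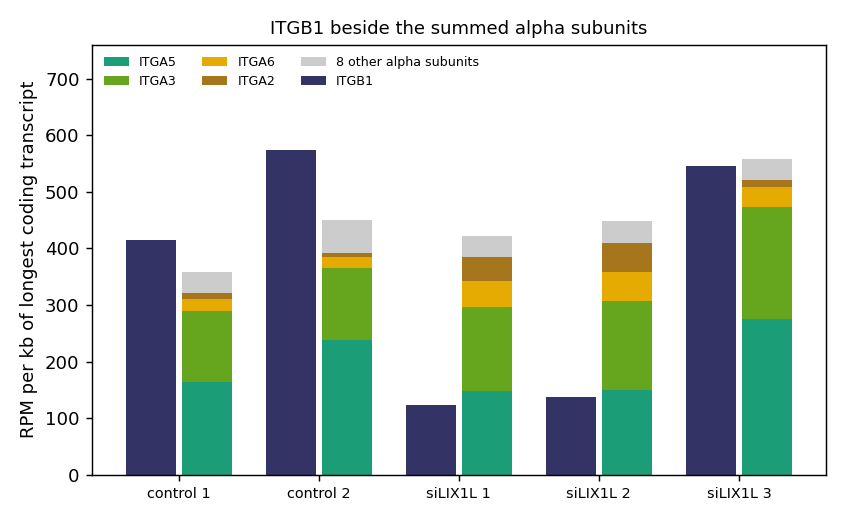
ITGB1 and the summed 12 alpha subunits (stacked) in RPM per kb of longest coding transcript, in each library. The ITGB1 bar exceeds the alpha bar in both controls and is less than it in the siLIX1L libraries, by the most in siLIX1L 1 and 2.

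None of the 13 linkers was called by limma or edgeR. PXN (chr12:120210439-120265771, minus strand), paxillin, the scaffold for focal adhesion kinase, was at 146 and 76.2 RPM in the controls and 185, 207 and 238 RPM after siLIX1L. LIMS1 (chr2:108534355-108687246, plus strand), the PINCH adaptor of the ILK complex, was at 185 and 110 RPM in the controls and 236, 259 and 273 RPM after siLIX1L. In both, every siLIX1L library lay above both controls, but the controls differed from each other. The mean of PXN was 1.89-fold higher, 2.76-fold without control 1 and 1.44-fold without control 2, and that of LIMS1 was 1.74-fold higher, 2.32-fold and 1.39-fold. The limma differences were 0.70 ± 0.21 for PXN (adjusted p 0.102) and 0.46 ± 0.14 for LIMS1 (adjusted p 0.105). The edgeR adjusted p was 0.113 and 0.110, and that of DESeq2 0.0344 and 0.0373.

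PTK2, focal adhesion kinase, was at 65.7 and 91.6 RPM in the controls and 114, 123 and 139 RPM after siLIX1L, a mean 1.59-fold higher without overlap (edgeR adjusted p 0.142). VCL, vinculin, was at 328 and 319 RPM in the controls and 435, 490 and 366 RPM after siLIX1L (limma adjusted p 0.230). FERMT2, kindlin-2, was at 302 and 315 RPM and 341, 363 and 447 RPM (adjusted p 0.335). These 3, with PXN, LIMS1 and ILK, are the 6 of 13 linkers whose groups did not overlap, against 44.1% of all genes. The ILK level cannot be read as expression, as said above. TLN1, talin-1, was at 674 and 561 RPM in the controls and 694, 782 and 554 RPM after siLIX1L, so the groups overlapped. ZYX, zyxin, a LIM protein of mature adhesions, had controls of 447 and 243 RPM and siLIX1L levels of 359, 343 and 490 RPM. TLN2, talin-2, was at 63.1 and 42.8 RPM and then 52.2, 61.05 and 75.1 RPM. PARVA, parvin-alpha, was at 101 and 56.8 RPM and then 69.6, 81.0 and 100.1 RPM. Talin-2 and parvin-alpha thus overlapped between the groups, as did the 3 linkers left. BCAR1, the substrate of focal adhesion kinase and Src, was at 215 and 186 RPM and then 223, 201 and 235 RPM. TNS1, tensin-1, was at 42.7 and 86.0 RPM and then 62.1, 72.8 and 100.1 RPM. TNS3, tensin-3, was at 58.5 and 60.8 RPM and then 85.6, 97.6 and 51.9 RPM. In TNS3 siLIX1L 1 and 2 lay above the controls and siLIX1L 3 below them, as in ITGB8. The ratios of means of these 5 ran from 1.06 to 1.31. Without control 2 the ratios of TLN2, PARVA and ZYX were 0.995, 0.831 and 0.889, and without control 1 that of TNS1 was 0.911.

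Leaving ILK aside for its overlap, all 12 other linkers had a positive difference in edgeR, with a median of 0.28, and so had all 7 that limma tested. Of all genes tested, 47.3% were positive in edgeR and 49.4% in limma. TLN1, ZYX, PARVA and TNS1 changed sign when 1 library was left out. Of the 7 linkers in limma, none changed sign with median-ratio or quantile scaling, which was not run for the others. The 15 integrins tested by edgeR were split, 7 positive and 8 negative, with a median of -0.03. Across all 13026 genes the edgeR difference moved with transcript length. The median was -0.34, -0.10, 0.08 and 0.25 in 4 equal classes from the shortest genes to the longest. The 28 members fell 1, 2, 12 and 13 in those classes, and 67.9% of all genes in the longest class and 56.1% in the one before it had a positive difference. The part of transcript length in the linkers' positive differences was not tested.

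**Figure D5:**
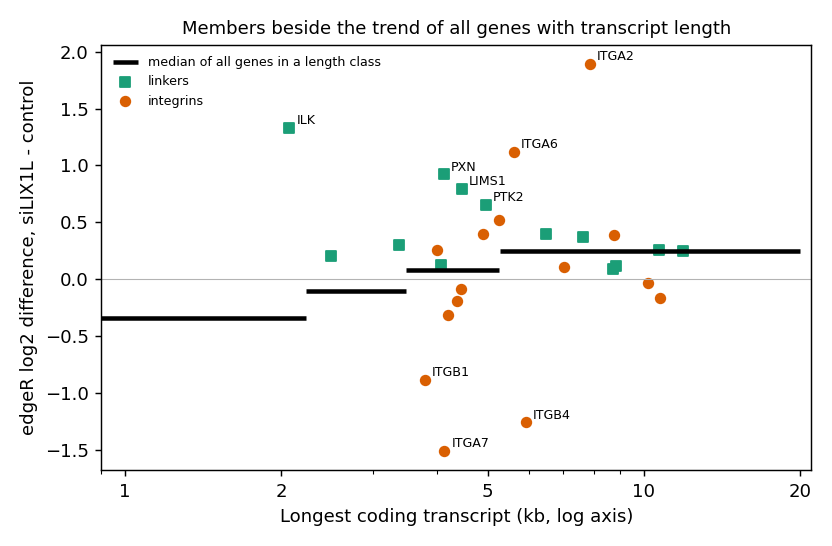
edgeR log2 difference against the longest coding transcript (log axis) for 28 members, with the median of all genes in each of 4 length classes as bars, which the axis cuts at both ends. PXN, LIMS1, PTK2, ITGA6 and ITGA2 lie above the bar of their class, and ITGB1, ITGA7 and ITGB4 lie below it.

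The 106 other genes of the adhesion pathway were taken as 4 lists. limma called 0 of 23 other adaptors and actin linkers, 0 of 13 other signalling genes and 2 of 26 integrin ligands, against the same 1.87% of all genes. The ligands called were FBN1, fibrillin-1, and COL6A2, a collagen VI chain. FBN1 rose from 1.22 and 1.48 FPKM to 2.91, 3.39 and 2.97 FPKM (limma difference 0.80 ± 0.13, adjusted p 0.0443). COL6A2 fell from 8.35 and 12.9 FPKM to 4.22, 3.92 and 3.88 FPKM (-1.19 ± 0.20, adjusted p 0.0463). Neither was called by edgeR (adjusted p 0.0542 and 0.0502), with siLIX1L 1 and 2 averaged or without any 1 siLIX1L library, and COL6A2 was not called with median-ratio scaling. The median difference was -0.19 over the ligands, 0.04 over the adaptors and 0.06 over the signalling genes. Collagen VI is a ligand of beta1 integrins and fibrillin-1 of alphaV and alpha5 integrins.

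The lowest limma p among the adaptors belonged to ACTN4, an actin crosslinker, at 4.91 and 5.99 FPKM in the controls and 9.68, 10.7 and 13.1 FPKM after siLIX1L (adjusted p 0.0552), and to CAV1, caveolin-1, at 12.4 and 11.6 FPKM and then 19.2, 18.7 and 18.3 FPKM (0.0731). Among the signalling genes it belonged to CRK, an adaptor bound by BCAR1, at 1.93 and 1.65 FPKM and then 3.56, 3.49 and 3.43 FPKM (0.0502), and to PAK2, a kinase downstream of RAC1 (0.182). None of the 9 other integrin subunits reached the limma minimum. edgeR called 1 of the 96 pathway genes it tested, against 0.891% of all genes. That gene, GIT2, a paxillin-binding protein, went from 9.14 and 6.01 RPM to 22.1, 28.5 and 23.7 RPM (adjusted p 0.0465). It was named after its values were seen. Without any 1 siLIX1L library edgeR called 0 genes, so GIT2 was not called there. In edgeR, 4 of the other subunits were tested and none was called.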

How the data were processed

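RNA was taken from LX-2 cells 48 h after siRNA transfection, per the labels' protocols. Each library has its own deposited table of FPKM, covering 19936 genes, per the file headers, and for siLIX1L 3 the authors also gave read counts and lengths. Bowtie 0.12.2 and mm8 stand in the submitters' processing notes, and mm8 is a mouse build although the gene IDs are human. How the FPKM were made is not recorded further. The lengths equal GENCODE 29 gene spans for 28 of the 30 members. FPKM times length, divided by what 1 read is worth in the library (found from the steps between low values), gave whole reads for 100% of values (within 0.01 reads). For siLIX1L 3 these equalled the deposited counts of all 19936 genes.

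limma 3.58.1 (R 4.3.3; trend and robust, 2-sided, Benjamini-Hochberg, threshold 0.05) was fitted to log2(FPKM + 1) of every gene that reached 1 FPKM in 2 or more libraries. edgeR 4.0.16 (quasi-likelihood, TMM, robust) and DESeq2 1.42.0 on the recovered reads were alternatives. Log2 differences on the FPKM scale understate the change of low genes. The 3-read limit covers counting error only. All members are named, with up to 4 genes past the threshold per pathway list, or up to 2 with the smallest p where none passed. Any outside this are said to be so. The script that runs limma, edgeR and DESeq2 was tested on simulated data. Promoter windows are RefSeq's. The members and lists were chosen with earlier results of these data known.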

Additional observations from a re-analysis of the deposited data

How the results depend on the processing

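The number of genes that limma called, 121, was 50 with no minimum level, 233 with quantile normalization, 1673 with DESeq2, 514 with edgeR without its low-count filter (added after seeing the data) and 0 with siLIX1L 1 and 2 averaged, where 976 genes had an unadjusted p under 0.05. Leaving out 1 library gave 0 to 1650 genes, the most without control 1 and 0 without any 1 siLIX1L library, where 899 to 1773 genes had an unadjusted p under 0.05. For the members, 0 in limma, the count was 6 with DESeq2, 1 (ITGA6) with edgeR without the filter, and 0 to 4 when 1 library was left out. In edgeR, also 0, it was 5 of 28 without control 1, a fit that called 2998 of 13402 genes. Whether the replicate numbers pair the samples is not known. The correlation of deviations was -0.12 for control 1 with siLIX1L 1 and -0.10 for control 2 with siLIX1L 2. The deviations of the 2 controls mirror each other, so these values cannot decide it. With the replicate block 94 of 6464 genes and 2 of the 15 members passed, ITGA2 (1.41) and ITGB1 (-1.71), in a fit where siLIX1L 3 has its own block and so no weight.

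Of the pathway genes, 2 called by limma became 0 with no minimum, 4 with a pseudocount of 0.1, 1 with median-ratio scaling, 5 with quantile normalization, 4 on log2(RPM + 0.5), 1 in edgeR, 16 in DESeq2, 12 in edgeR without the filter, 0 with siLIX1L 1 and 2 averaged and 0 to 19 when 1 library was left out. The pathway genes tested were 62 in limma as reported, 96 in edgeR, 97 in DESeq2 and 105 in edgeR without the filter. Among all genes, DESeq2 called 12.5% of 13334 and edgeR without the filter called 514 of 16905. The 19 came without control 1, the left-out fit that also called the most genes in limma. The largest pathway counts thus came from settings that called many genes of any kind. The median log2 ratio over the 26 members at 1 RPM or more, 0.22, ranged from 0.11 without siLIX1L 3 to 0.33 without control 1.

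Of 333 member values under the alternatives, 304 kept direction and side of the threshold, 14 passed it and 15 changed sign. The cause was not tested. In limma, ITGA5 (-0.11) was 0.17 with quantile normalization and 0.038 with siLIX1L 1 and 2 averaged, and ran from -0.39 to 0.16 when 1 library was left out. On the same basis ITGAV ran from -0.10 to 0.28, ITGB5 from -0.22 to 0.059, TLN1 from -0.0085 to 0.25 and ZYX from -0.18 to 0.67. In edgeR without control 2, ITGA11 was 0.0049, ITGB3 -0.12 and PARVA -0.24, without siLIX1L 3 ITGA11 was 0.012 and PARVA -0.077, and without control 1 TNS1 was -0.17. ITGA8, ITGA9, ITGA10 and ILK, at 18 reads or fewer, had too few reads to weigh. For ILK the exon overlap given above also limits the reading, and the part of depth was not tested.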
